A study of Mus musculus with 12 samples.

Results

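Chemokine ligands were taken as every gene whose symbol was Ccl, Cxcl, Cx3cl or Xcl followed by a number and at most 1 further letter, which gave 39 of the 45859 genes in the deposited tables. The symbols alone chose the genes, although this rule was set with earlier results of these data known. RNA came from the lens capsules and attached lens epithelial cells (LCs) that stay in the mouse eye when the lens fiber cells are removed, a model of cataract surgery. Capsules were taken at 0 h or 24 h post cataract surgery (PCS), with 3 libraries of pooled capsules in each of 4 conditions. WT animals were C57BL/6. β8ITG-cKO animals, whose strain is labelled as a mix of C57BL/6 and 129S1/Sv, carried floxed Itgb8 alleles and the MLR10-Cre transgene, which makes Cre in all lens cells from an early embryonic stage. All 4 groups were adults of 2 months and all had undergone surgery. The Cre transgene, the mixed strain and the loss of β8 integrin cannot be told apart, because each was present in every β8ITG-cKO library and in no WT library.

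Chemokines are small secreted proteins that lead leukocytes along concentration gradients by binding G protein-coupled receptors. Those that carry a Glu-Leu-Arg motif ahead of their paired cysteines (Cxcl1, Cxcl2, Cxcl3 and Cxcl5) draw neutrophils through Cxcr2, whereas Ccl2, Ccl7 and Ccl12 draw monocytes through Ccr2. In injured epithelia many of these genes are turned on within hours by NF-κB, while others, such as Cxcl14 and Cx3cl1, are made by resting tissue. The lens has no blood vessels and normally holds few or no leukocytes, so the signals that its epithelium releases after surgery bear on which cells enter the eye.

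Levels are FPKM (fragments per kilobase of transcript, scaled to the number of mapped read pairs), which allow for gene length. The sum over all genes was 446531 to 740140 FPKM per library, of which the 10 most abundant genes took 36.0% to 49.6%. Relative sequencing depth, read from the steps between low values, spanned 0.87 to 1.09, and absolute depth is unknown. A value of 0 in these tables can be a failed estimate rather than missing RNA: Cryaa, the lens αA-crystallin gene, had a listed value of 0 in WT 0 h replicate 2, while the other 11 libraries held 8385 to 30393.1 FPKM. Genes at 0 are therefore described only as listed at 0. Itgb8 itself stood at 7.26, 10.8 and 8.42 FPKM in WT 0 h, at 9.08, 8.38 and 9.58 in WT 24 h, at 6.83, 4.58 and 7.31 in β8ITG-cKO 0 h and at 9.28, 11.8 and 10.3 in β8ITG-cKO 24 h. The genotypes overlapped at 0 h and at 24 h. That total counts the whole gene, of which the floxed stretch is a small part, so it does not check the genotype labels. The other lens epithelial markers were present throughout, Pax6 for example at 59.9 to 93.5 FPKM, but not all were steady. By the criteria given below, 1 of the 8 listed was called lower over time in WT and 4 in β8ITG-cKO (3.92% and 3.77% of all genes). All 8 lens fiber markers were called lower in both genotypes. Their sum was 4139.4 to 6202.3 FPKM at 0 h and 728.6 to 1469.3 FPKM at 24 h. In bulk RNA, fewer cells of a type and less RNA per cell cannot be told apart.

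The summed level of the chemokine ligands was high in WT capsules at the moment of surgery, mostly through Ccl2, low in β8ITG-cKO capsules at the same time, and high in both genotypes a day later. The sum was 398.9, 264.7 and 163.0 FPKM in WT 0 h, and β8ITG-cKO 0 h reached 54.8, 51.1 and 57.2 FPKM. At 24 h WT reached 471.1, 691.7 and 556.0 FPKM, and β8ITG-cKO 402.0, 392.0 and 425.5 FPKM. The groups did not overlap in any of the 4 pairs of conditions compared. Ccl2 was the most abundant member in 9 libraries, holding 40.6% to 77.6% of the sum there. In the 3 β8ITG-cKO 0 h libraries Cx3cl1 led with 36.8% to 41.0%, and Ccl2 held 5.8% to 13.4%. Without Ccl2 the genotypes lay closer at 0 h, with sums of 89.2, 75.2 and 58.1 FPKM in WT and 51.6, 44.3 and 53.5 FPKM in β8ITG-cKO. At 24 h the sums without Ccl2 were 266.2, 411.0 and 320.5 FPKM in WT and 218.9, 214.9 and 190.0 FPKM in β8ITG-cKO, so the groups remained apart at both times.

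**Figure D1:**
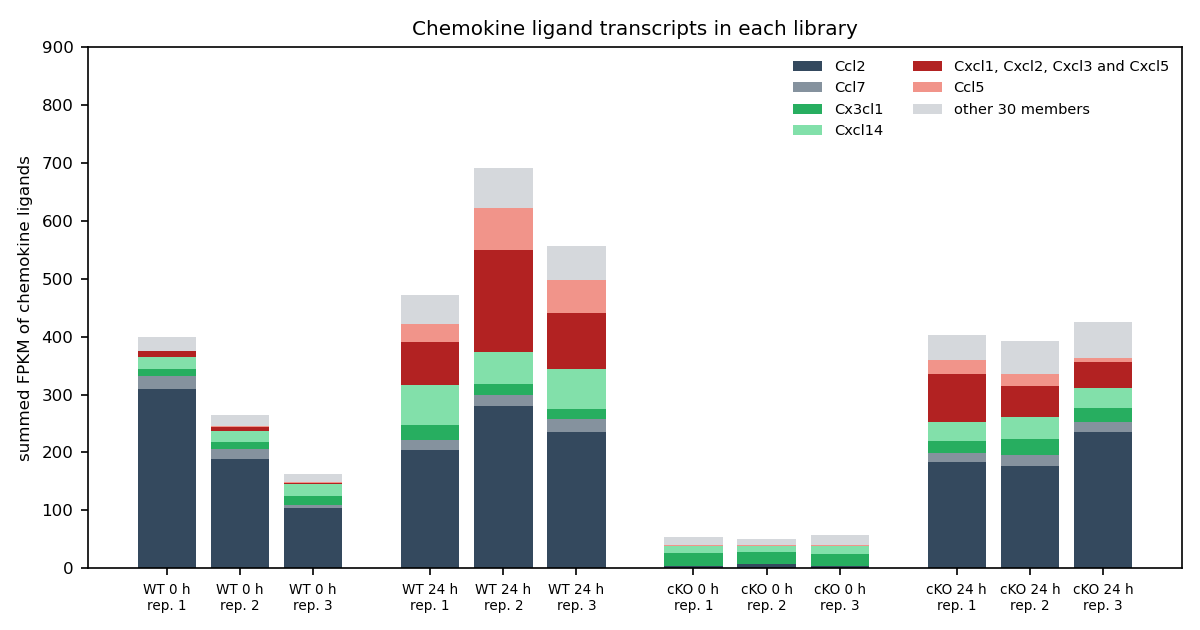
Stacked bars give the summed FPKM of the 39 chemokine ligands in each of the 12 libraries, split into Ccl2, Ccl7, Cx3cl1, Cxcl14, the 4 detected Cxcr2 ligands, Ccl5 and the other 30 members. The β8ITG-cKO (cKO) 0 h bars reach 51.1 to 57.2 FPKM, below every other library, and Ccl2 makes up most of the WT 0 h bars.

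A total of 20 members had a mean of at least 2 FPKM in some group and are given below library by library. Of the other 19, 4 (Ccl1, Ccl26, Cxcl15 and Xcl1) were listed at 0 in every library, and the highest value among the remaining 15 was 3.41 FPKM, for Ccl17 in WT 24 h replicate 2. The 12 members annotated on mouse chromosome 11 and the 11 on chromosome 5 include the large CC and CXC gene clusters, in which neighbours are copies of each other. Ccl21a, Ccl21b and Ccl21c, and Ccl27a and Ccl27b, are near-identical copies among which reads may have been split, so their single values are uncertain.

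**Figure D2:**
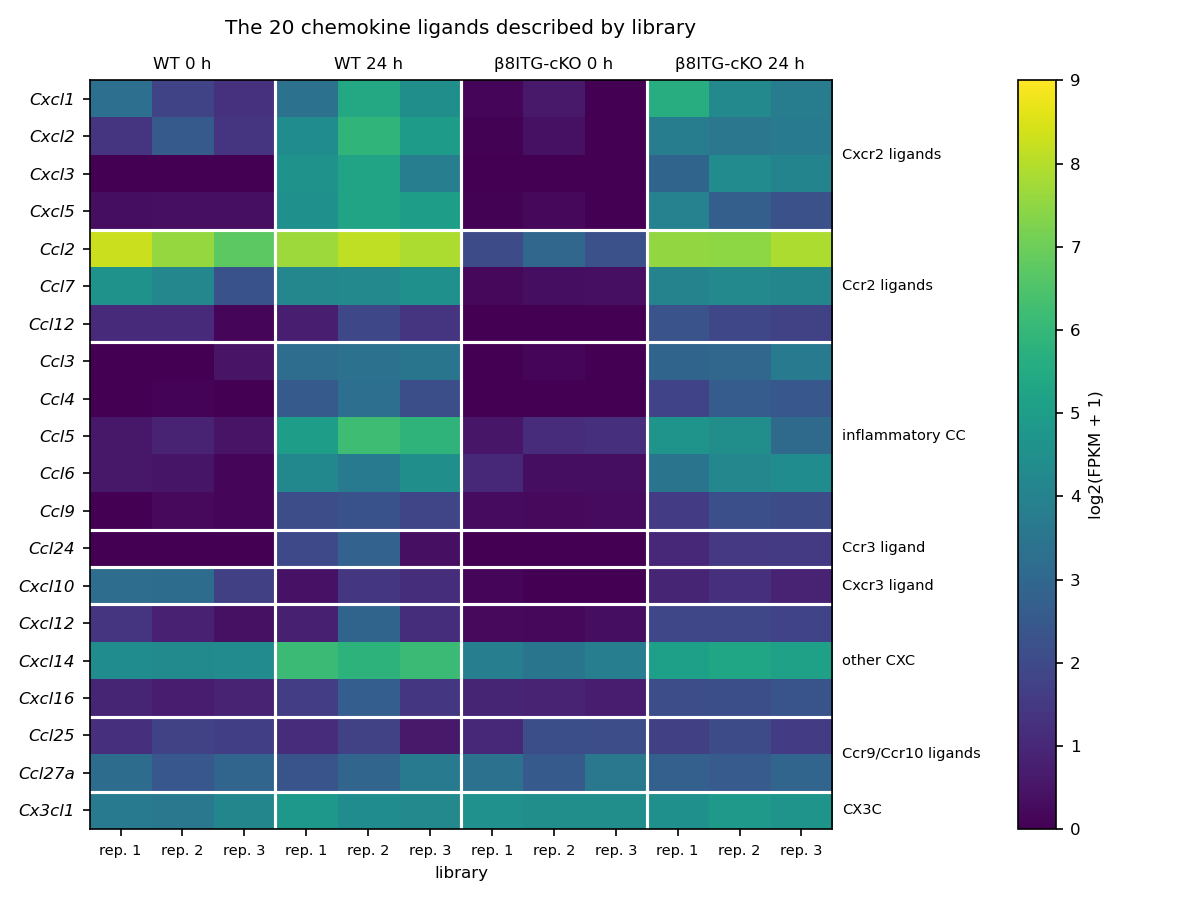
Heat map of log2(FPKM + 1) for the 20 chemokine ligands with a group mean of at least 2 FPKM (rows, grouped by receptor or class) in the 12 libraries (columns, grouped by condition). The rows from Cxcl1 to Cxcl5 and from Ccl3 to Ccl9 brighten at 24 h in both genotypes, whereas Ccl2 and Ccl7 are darkest in the β8ITG-cKO 0 h columns.

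A change was called where limma gave an adjusted p of at most 0.05 over all genes tested and the group means differed by more than 2-fold and more than 2 FPKM, with at least 2 FPKM in 1 group. Differences are on the log2(FPKM + 1) scale, which understates the change of low genes, and carry a standard error (SE). In WT, 21 of the 39 members passed the filter of a mean of 0.5 FPKM over the 6 libraries compared, and 12 were called higher and 1 lower at 24 h. Among all 15146 genes tested, 10.3% were called higher and 3.92% lower. In β8ITG-cKO, 21 members passed and 15 were called higher and 0 lower at 24 h, against 11.3% and 3.77% of 15237 genes, and 17 members had an unadjusted p under 0.05. An adjusted p of at most 0.05 alone was reached by 15 members in WT, against 29.7% of all genes, and by 17 in β8ITG-cKO, against 46.1%. The 24 h and 0 h libraries did not overlap for 15 members in WT (46.9% of all genes), of which 14 were higher at 24 h (31.3% of all genes). In β8ITG-cKO they did not overlap for 17 members (56.9% of all genes), all of them higher (42.9%). The median difference over the members that passed was 1.67 in WT and 1.98 in β8ITG-cKO, and 1.23 and 1.70 without those listed at 0 in a whole group. The median over all genes was 0.16 and 0.23. Members that passed the filter through their level at 24 h alone had to differ, so these counts describe the members and are no test of them.

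Between the genotypes, fewer members differed. At 0 h, 13 members passed the filter and 4 were called lower in β8ITG-cKO (Ccl2, Ccl7, Cxcl10 and Cxcl2), against 1.18% of 14708 genes called lower and 2.52% called in either direction. An adjusted p of at most 0.05 was reached by 6 members (6.94% of all genes), and the genotypes did not overlap for 9 (30.8% of all genes). None was called higher, against 1.35% of all genes, and 8 of the 13 had an unadjusted p under 0.05 in either direction. At 24 h, 22 members passed and only Cxcl5 was called lower, against 0.286% of 15366 genes called lower and 3.66% called in either direction. An adjusted p of at most 0.05 was reached by 2 members, Cxcl5 and Cxcl14 (6.29% of all genes), and the genotypes did not overlap for 5 (26.5%). The same count for higher calls at 24 h was 0, against 3.37% of all genes, with 4 of the 22 members at an unadjusted p under 0.05. In 1 fit over the 12 libraries, 4 members changed over time to a different extent in the genotypes (Ccl2, Ccl7, Cxcl10 and Ccl5), against 9.39% of 15262 genes. In 3 of the 4 the change was more positive in β8ITG-cKO (6.83% of all genes) and in 1, Ccl5, less so (2.56%). Of the 20 members tested over time in both genotypes, 11 were called higher in both, against 5.34% of the 14488 genes tested in both.

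**Figure D3:**
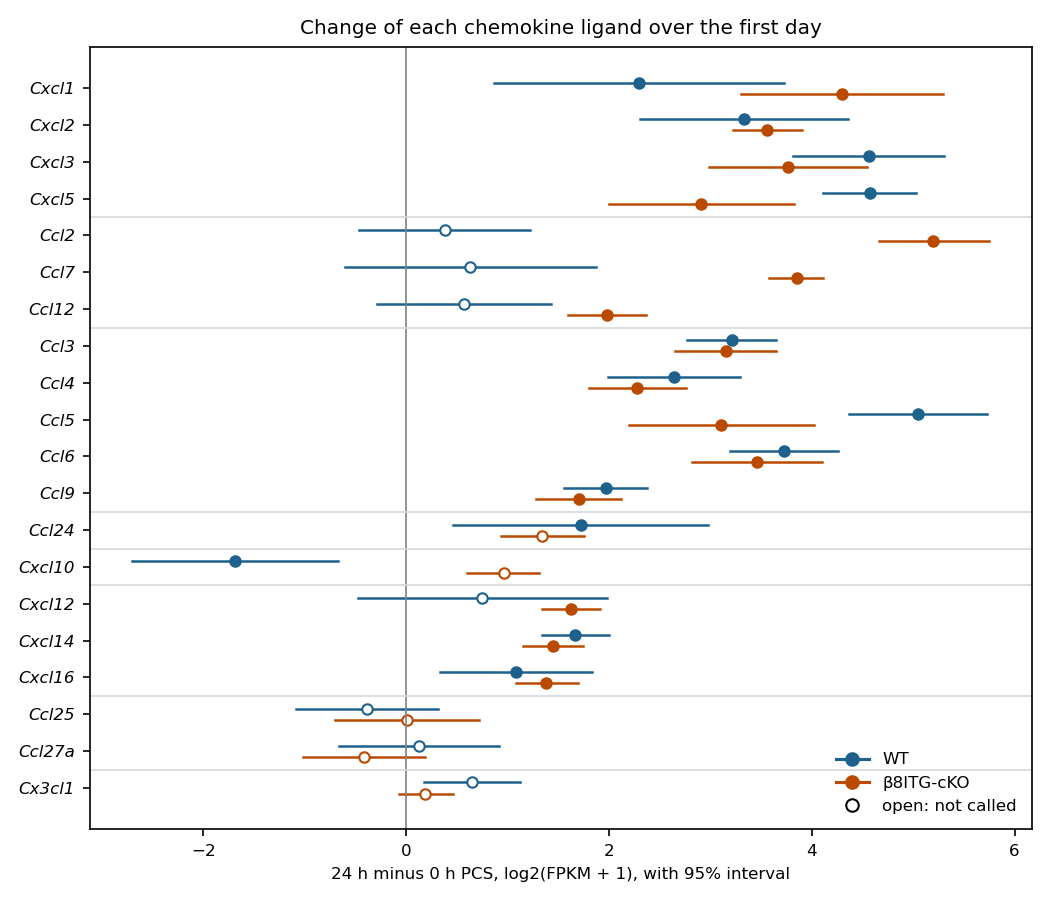
Difference between 24 h and 0 h PCS on the log2(FPKM + 1) scale for each of the 20 members in WT (blue) and β8ITG-cKO (orange), with 95% intervals from limma. Filled points were called, open points were not. The WT interval for Ccl2 runs from -0.47 to 1.22 and the β8ITG-cKO interval from 4.66 to 5.75.

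On the log2(FPKM + 1) scale, Ccl2 and Ccl7, both Ccr2 ligands, showed the largest differences between the genotypes at 0 h among the members tested. Cxcl10 followed on that scale, and its ratio is not given because 2 of its 3 β8ITG-cKO 0 h libraries were listed at 0. Ccl2, the main monocyte attractant (chromosome 11, 82035571 to 82037453, GRCm38), stood at 309.7, 189 and 105 FPKM in WT 0 h and at 3.18, 6.87 and 3.73 FPKM in β8ITG-cKO 0 h. Every WT library lay above every β8ITG-cKO library, and the WT mean was 43.8-fold the β8ITG-cKO mean. Ccl2 was among the 236 most abundant genes in each WT 0 h library and between places 5115 and 8574 in the β8ITG-cKO 0 h libraries. The difference was -5.10 (SE 0.39, limma adjusted p = 0.000905) and kept its call when any 1 library was left out (-5.50 to -4.72).

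At 24 h, the Ccl2 level was 205, 281 and 236 FPKM in WT, and β8ITG-cKO held 183, 177 and 236 FPKM. The genotypes overlapped there, with a difference of -0.27 (SE 0.19, 95% interval -0.71 to 0.16, adjusted p = 0.464). Over the day Ccl2 therefore rose 43.2-fold in β8ITG-cKO (difference 5.20, SE 0.24, adjusted p = 8.07e-06), and in WT the difference was 0.38 (SE 0.36, adjusted p = 0.460), with overlapping groups. The change over time was larger in β8ITG-cKO by 4.83 (SE 0.48, adjusted p = 0.00143).

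Ccl7, which lies next to Ccl2 (chromosome 11, 82045712 to 82047525) and also binds Ccr2, followed the same course at a lower level. It was at 22.9, 17.1 and 3.77 FPKM in WT 0 h and at 0.13, 0.26 and 0.28 FPKM in β8ITG-cKO 0 h. The groups did not overlap (difference -3.38, SE 0.53, adjusted p = 0.0151), although WT replicate 3 was far below its group. The call was lost without β8ITG-cKO 0 h replicate 2 (Ccl7 adjusted p = 0.0540) or replicate 3 (0.0682). At 24 h the libraries held 16.8, 18.0 and 21.8 FPKM in WT and 15.3, 17.8 and 16.7 FPKM in β8ITG-cKO, a difference of -0.17 (SE 0.14, adjusted p = 0.552). The rise in β8ITG-cKO was 74.3-fold (difference 3.85, SE 0.12, adjusted p = 1.85e-06), and the genotypes differed in the change over time by 3.21 (SE 0.62, adjusted p = 0.0106).

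Ccl12 and Ccl8, the other Ccr2 ligands, were low. Ccl8 was above 0 in 5 libraries, with a highest value of 1.21 FPKM in β8ITG-cKO 0 h replicate 1, and Ccl12 was detected more widely. For Ccl12, WT held 1.09, 1.18 and 0.10 FPKM at 0 h and 0.67, 2.83 and 1.54 FPKM at 24 h, overlapping groups that did not pass the test (adjusted p = 0.276). β8ITG-cKO was listed at 0 in all 3 libraries at 0 h and held 3.89, 2.77 and 2.34 FPKM at 24 h, which was called higher (adjusted p = 8.95e-05). No fold is given against a group listed at 0. Its difference in the change over time was 1.41 (SE 0.44, adjusted p = 0.0685).

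**Figure D4:**
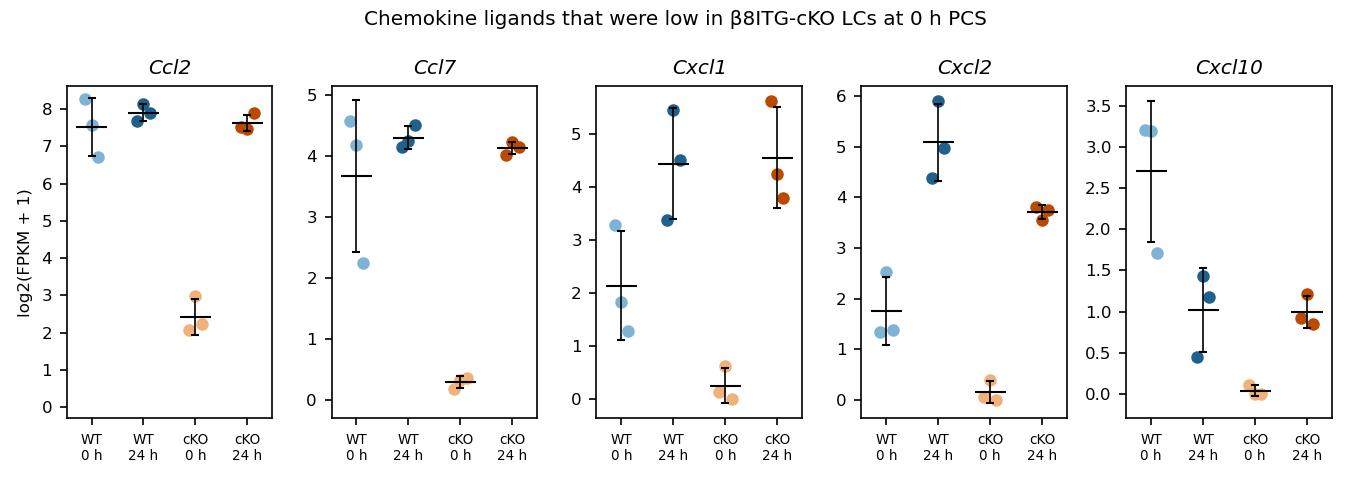
Each point is 1 library, with the group mean and SD as line and bar, on the log2(FPKM + 1) scale for Ccl2, Ccl7, Cxcl1, Cxcl2 and Cxcl10. In all 5 panels the β8ITG-cKO (cKO) 0 h libraries lie below every WT 0 h library, and at 24 h the genotypes overlap for Ccl2, Ccl7, Cxcl1 and Cxcl10.

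The Cxcr2 ligands rose in both genotypes over the day, and the genotypes differed for some of them. The genes sit together on chromosome 5, and stretches of their promoters are shown because Cxcl1, Cxcl2 and Cxcl3 rose in both genotypes and each held a match to the κB consensus, the sequence that NF-κB binds. Promoter sequence from RefSeq (GRCm38.p6, 250 bases before to 50 after the start of transcription) was found for 27 of the 39 members. The 120 bases before the start are printed 5′ to 3′ on the gene's strand, with every match to the κB consensus, a 10-base motif searched on both strands, in capitals.
Cxcl1 (chr5:90891125-90891244, plus strand): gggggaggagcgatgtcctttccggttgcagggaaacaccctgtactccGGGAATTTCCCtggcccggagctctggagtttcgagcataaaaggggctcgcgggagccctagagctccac
Cxcl2 (chr5:90903779-90903898, plus strand): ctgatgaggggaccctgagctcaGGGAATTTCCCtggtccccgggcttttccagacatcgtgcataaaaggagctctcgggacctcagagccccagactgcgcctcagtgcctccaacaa
Cxcl3 (chr5:90785981-90786100, plus strand): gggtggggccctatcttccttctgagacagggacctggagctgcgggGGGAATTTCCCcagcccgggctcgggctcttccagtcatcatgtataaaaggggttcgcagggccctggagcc
Cxcl10 (chr5:92348890-92349009, minus strand): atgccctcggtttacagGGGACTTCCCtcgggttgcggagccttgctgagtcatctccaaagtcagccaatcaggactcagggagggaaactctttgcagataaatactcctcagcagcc
Cxcl14 (chr13:56296552-56296671, minus strand): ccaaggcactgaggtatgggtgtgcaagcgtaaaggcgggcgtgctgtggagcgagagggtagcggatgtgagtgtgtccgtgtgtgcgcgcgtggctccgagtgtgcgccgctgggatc

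In Cxcl1, Cxcl2 and Cxcl3 the capitals hold overlapping matches on the 2 strands, which begin 71, 97 and 73 bases before the start. Cxcl10, which moved the other way in WT, holds a κB match in this stretch and a further one 159 bases before the start. Cxcl14, an abundant member that also rose, holds none in the window searched, which says only that these letters are not there. Over the whole 300-base windows, the κB consensus was found for 7 of the 27 members (Cxcl1, Cxcl2, Cxcl3, Cxcl10, Ccl9, Ccl20 and Ccl27a) and for 5.14% of 27025 genes. Of the 9 members with a promoter that were called higher over time in either genotype, 4 held it. The core of the interferon-stimulated response element (both strands) was found for 3 members (Ccl19, Cxcl10 and Cxcl14) and for 3.99% of all genes. The AP-1 site (TGACTCA, both strands) was found for 5 members and for 5.95% of genes, and TATAAA on the gene's strand for 9 members and for 9.77% of genes. These matches describe the letters and are not evidence of binding.

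Cxcl1, the mouse counterpart of human GRO and a leading neutrophil attractant, was at 8.74, 2.57 and 1.45 FPKM in WT 0 h and at 9.35, 42.7 and 21.6 FPKM in WT 24 h. The lowest 24 h library stood just above the highest 0 h library, and the mean rose 5.77-fold (difference 2.30, SE 0.62, adjusted p = 0.0274). β8ITG-cKO held 0.10, 0.54 and 0 FPKM at 0 h, then 48.1, 17.9 and 12.8 FPKM at 24 h (difference 4.30, SE 0.43, adjusted p = 0.000198). The genotypes did not overlap at 0 h, where the difference of -1.89 missed the threshold (SE 0.46, adjusted p = 0.0514). At 24 h they overlapped widely (difference 0.11, SE 0.61, 95% interval -1.31 to 1.52). The WT call for Cxcl1 over time was lost without WT 0 h replicate 2 (adjusted p = 0.0799), WT 0 h replicate 3 (0.0836), WT 24 h replicate 2 (0.0879) or WT 24 h replicate 3 (0.0530).

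Cxcl2, which macrophages and epithelium release early in inflammation, was at 1.54, 4.80 and 1.61 FPKM in WT 0 h and at 19.8, 58.9 and 30.5 FPKM in WT 24 h. That was a 13.7-fold rise of the mean (difference 3.33, SE 0.44, adjusted p = 0.00202). β8ITG-cKO held 0.04, 0.32 and 0 FPKM at 0 h and 13.1, 10.8 and 12.4 FPKM at 24 h (difference 3.56, SE 0.15, adjusted p = 5.20e-06). WT lay above β8ITG-cKO without overlap at both times. At 0 h Cxcl2 was called lower in β8ITG-cKO (difference -1.60, SE 0.32, adjusted p = 0.0292). That call was lost without WT 0 h replicate 1 (Cxcl2 adjusted p = 0.0592) or without any 1 of the β8ITG-cKO 0 h libraries (0.0830, 0.0741 and 0.110), and without WT 0 h replicate 2 because the WT mean fell below the level required. At 24 h the WT mean was 3.0-fold the β8ITG-cKO mean, and the difference of -1.38 did not pass (SE 0.35, adjusted p = 0.0635). The change over time did not differ detectably (0.23, SE 0.52, 95% interval -0.91 to 1.36).

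Cxcl3 was listed at 0 in all 6 libraries at 0 h. At 24 h it stood at 23.2, 37.0 and 13.4 FPKM in WT (adjusted p = 0.000169) and at 6.44, 19.4 and 15.8 FPKM in β8ITG-cKO (adjusted p = 0.000120). The genotypes overlapped at 24 h, with a difference of -0.79 (SE 0.45, 95% interval -1.85 to 0.27).

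Cxcl5, a Cxcr2 ligand made chiefly by epithelium, was the only member called between the genotypes at 24 h. It was at 0.27, 0.29 and 0.28 FPKM in WT 0 h and at 22.04, 37.0 and 31.1 FPKM in WT 24 h, a 107-fold rise of the mean (difference 4.57, SE 0.20, adjusted p = 6.24e-05). β8ITG-cKO held 0.03, 0.13 and 0 FPKM at 0 h and 14.9, 5.62 and 3.69 FPKM at 24 h (difference 2.91, SE 0.39, adjusted p = 0.000825). All 3 WT libraries lay above all 3 β8ITG-cKO libraries at 24 h, and the WT mean was 3.72-fold higher (difference -1.94, SE 0.43, adjusted p = 0.0401). The call for Cxcl5 was lost without WT 24 h replicate 1 (adjusted p = 0.0517), replicate 2 (0.126) or replicate 3 (0.0796), and without β8ITG-cKO 24 h replicate 2 (0.143) or replicate 3 (0.114). The change over time differed by -1.66 and did not pass (SE 0.49, adjusted p = 0.0557).

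**Figure D5:**
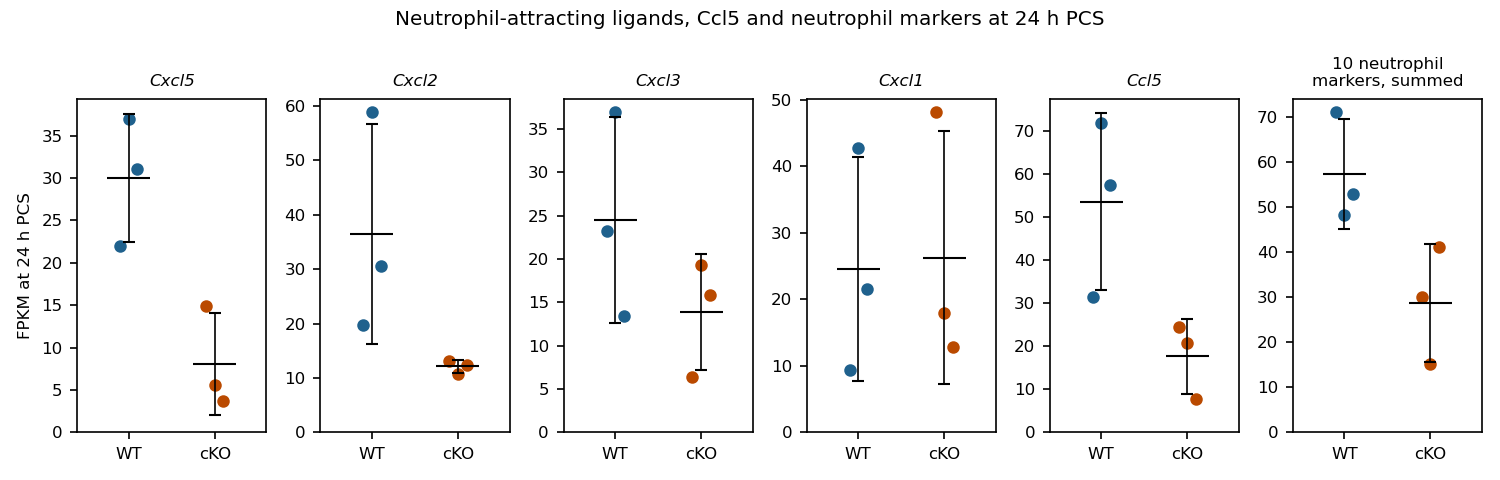
FPKM at 24 h PCS in each WT and β8ITG-cKO (cKO) library for 4 Cxcr2 ligands and Ccl5, and the summed FPKM of 10 neutrophil markers, with means and SDs. Cxcl5, Cxcl2, Ccl5 and the marker sum do not overlap between the genotypes, whereas Cxcl3 and Cxcl1 do. Of the 5 genes, only Cxcl5 was called.

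The summed level of neutrophil markers, like the Cxcr2 ligands, was higher at 24 h than at 0 h in both genotypes. The summed level of 10 markers was 0.637 to 1.57 FPKM at 0 h in both genotypes, 71.1, 48.1 and 52.8 FPKM in WT 24 h and 30.0, 15.1 and 41.0 FPKM in β8ITG-cKO 24 h. S100a8 and S100a9, the calprotectin genes that fill the neutrophil cytosol, were at 18.5, 14.0 and 9.29 and at 30.7, 19.3 and 24.2 FPKM in WT 24 h. In β8ITG-cKO 24 h they were at 5.52, 1.65 and 5.83 and at 10.2, 5.31 and 15.9 FPKM. Between the genotypes neither passed the test at 24 h (adjusted p = 0.0658 for S100a8 and 0.0862 for S100a9). Of the 6 markers tested there, 0 were called (3.66% of all genes) and 3 did not overlap (26.5% of all genes). Csf3r overlapped, at 8.8, 8.12 and 10.96 FPKM in WT 24 h and 6, 3.51 and 9.15 FPKM in β8ITG-cKO 24 h. Mmp9 overlapped with the higher mean in β8ITG-cKO, at 6.34, 2.6 and 2.8 FPKM in WT and 6.26, 2.95 and 5.98 in β8ITG-cKO. Ly6g, Mpo and Elane, which mark neutrophils and their precursors, were listed at 0 in every library. The part of these cells in the Cxcr2 ligand levels was not tested. Cxcr2 itself was at 4.23, 3.42 and 3.49 FPKM in WT 24 h, at 1.94, 1.52 and 2.97 FPKM in β8ITG-cKO 24 h and at 0.23 to 0.74 FPKM at 0 h. It was called higher over time in WT (difference 1.75, SE 0.17, adjusted p = 0.000646). In β8ITG-cKO the difference of 1.10 (adjusted p = 0.00404) was not called, because the means differed by less than 2 FPKM.

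The inflammatory CC ligands Ccl3, Ccl4, Ccl5, Ccl6 and Ccl9, which draw monocytes and other leukocytes, rose in both genotypes. In each, 5 of 5 were called higher, against 10.3% of all genes in WT and 11.3% in β8ITG-cKO. Ccl3, Ccl4, Ccl6 and Ccl9 averaged under 0.5 FPKM at 0 h in both genotypes and passed the filter through their 24 h level. A rise was therefore built into their selection, and the count is no test. Ccl5 (RANTES) rose most among them in WT, from 0.50, 0.82 and 0.39 FPKM at 0 h to 31.4, 72.0 and 57.4 FPKM at 24 h. The mean was 93.6-fold higher (difference 5.05, SE 0.29, adjusted p = 8.29e-05). In β8ITG-cKO it went from 0.45, 1.21 and 1.34 FPKM to 24.5, 20.8 and 7.73 FPKM, 17.7-fold (difference 3.11, SE 0.39, adjusted p = 0.000586). The genotypes overlapped at 0 h and did not at 24 h, where the WT mean was 3.03-fold higher (difference -1.61, SE 0.45, adjusted p = 0.0876, not called).

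The rise of Ccl5 was smaller in β8ITG-cKO by 1.94 on the log2 scale (SE 0.55, adjusted p = 0.0471). That call stood close to the threshold and was lost in 9 of the 12 fits that left out 1 library, with adjusted p up to 0.109 for Ccl5. It was kept without WT 24 h replicate 1 (adjusted p = 0.0298), β8ITG-cKO 0 h replicate 1 (0.0495) or β8ITG-cKO 24 h replicate 1 (0.0412). Genes of the interferon response, a response that can also induce Ccl5, rose over time as well. Of the 9 tested, 8 were called higher in WT and 6 in β8ITG-cKO, against 10.3% and 11.3% of all genes. Isg15, a ubiquitin-like modifier, was at 5.84, 14.8 and 14.8 FPKM in WT 24 h and at 7.52, 4.59 and 8.81 FPKM in β8ITG-cKO 24 h. Rsad2, which makes an antiviral nucleotide, was called lower in β8ITG-cKO at 24 h (difference -1.46, SE 0.27, adjusted p = 0.0206), at 2.96, 6.97 and 5.69 FPKM in WT and 1.18, 0.85 and 1.5 FPKM in β8ITG-cKO.

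Ccl3 and Ccl4 (the macrophage inflammatory proteins 1α and 1β) are made mainly by myeloid cells. Ccl3 was listed at 0, 0 and 0.38 FPKM in WT 0 h and stood at 8.37, 9.29 and 10.4 FPKM in WT 24 h (adjusted p = 8.95e-05). In β8ITG-cKO it was listed at 0, 0.11 and 0 FPKM at 0 h and stood at 6.55, 6.83 and 12.02 FPKM at 24 h (adjusted p = 3.82e-05). The genotypes overlapped at both times, and the change over time differed by -0.06 (SE 0.30, 95% interval -0.71 to 0.58).

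Ccl4 was listed at 0, 0.07 and 0 FPKM in WT 0 h and stood at 4.86, 8.75 and 3.50 FPKM in WT 24 h (adjusted p = 0.000836). β8ITG-cKO was listed at 0 at 0 h and held 2.51, 5.07 and 4.39 FPKM at 24 h (adjusted p = 0.000129). The difference between the genotypes at 24 h was -0.39 (SE 0.32, 95% interval -1.14 to 0.36), with overlap.

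Ccl6 and Ccl9 are rodent CC chemokines of macrophages and other myeloid cells. Ccl6 rose 49.5-fold in WT, from 0.51, 0.44 and 0.08 to 17.5, 12.3 and 21.1 FPKM (difference 3.73, SE 0.23, adjusted p = 0.000108). In β8ITG-cKO it rose 31.6-fold, from 0.98, 0.25 and 0.25 to 10.02, 16.9 and 19.96 FPKM (difference 3.46, SE 0.27, adjusted p = 7.02e-05). Ccl9 rose from 0.02, 0.17 and 0.09 to 3.38, 3.83 and 2.69 FPKM in WT (difference 1.97, SE 0.18, adjusted p = 0.000497). In β8ITG-cKO it rose from 0.19, 0.17 and 0.20 to 1.96, 3.56 and 3.23 FPKM (difference 1.70, SE 0.18, adjusted p = 0.000264). For both genes the genotypes overlapped at 24 h, with differences of -0.13 (95% interval -0.79 to 0.52) for Ccl6 and -0.15 (-0.63 to 0.33) for Ccl9.

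Some monocyte and macrophage markers rose with these ligands and others did not. The sum of 12 markers was 22.4, 23.2 and 12.6 FPKM in WT 0 h, 17.4, 11.1 and 14.4 in β8ITG-cKO 0 h, 59.1, 63.9 and 46.0 in WT 24 h and 48.9, 42.4 and 67.2 in β8ITG-cKO 24 h. Of the 9 markers tested over time, 3 were called higher in WT and 5 in β8ITG-cKO, against 10.3% and 11.3% of all genes. Their median difference was -0.12 in WT and 0.99 in β8ITG-cKO (0.16 and 0.23 over all genes). Cd14, Cd68 and Itgam, which are high in recruited myeloid cells, were called in both genotypes. In WT 5 markers had a negative difference and were not called, namely C1qc (difference -1.04, adjusted p = 0.0850), C1qa (-0.40), Mrc1 (-0.31), C1qb (-0.13) and Csf1r (-0.12). Of the 11 tested between the genotypes at 24 h, 0 were called, against 3.66% of all genes, so the count does not show that the genotypes were alike. Itgam, the αM integrin of myeloid cells, was at 0.13 to 0.36 FPKM in all 6 libraries at 0 h and at 4.90 to 10.7 FPKM in all 6 at 24 h. Ly6c2 and Ccr2, markers of fresh monocytes, were below 0.1 FPKM in every library at 0 h. They were still low at 24 h, at 0.39 to 1.51 FPKM for Ly6c2 and 0.09 to 1 FPKM for Ccr2. Markers of T and NK cells stayed low, with sums of 0.0554 to 0.788 FPKM over 8 genes. The part of myeloid cells in the rise of Ccl3, Ccl4, Ccl6 and Ccl9 was not tested.

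Among the Ccr3 ligands, which act on eosinophils, only Ccl24 (eotaxin-2) was detected above 0.5 FPKM. It was listed at 0 in all 6 libraries at 0 h and stood at 2.95, 6.11 and 0.28 FPKM in WT 24 h and at 1, 1.85 and 1.87 FPKM in β8ITG-cKO 24 h. It was called higher in WT (adjusted p = 0.0477), and that call was lost in 5 of the 6 fits that left out 1 WT library, with adjusted p of 0.105 to 0.122 for Ccl24. It stood without WT 24 h replicate 3 (0.00168), the library with the low value.

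Cxcl10, an interferon-inducible attractant of activated T cells through Cxcr3, was the only member called lower over time. It was at 8.28, 8.14 and 2.29 FPKM in WT 0 h and at 0.36, 1.71 and 1.26 FPKM in WT 24 h, 5.61-fold lower by the means (difference -1.69, SE 0.44, adjusted p = 0.0241). The call for Cxcl10 was lost without WT 0 h replicate 1 (adjusted p = 0.0836), WT 0 h replicate 2 (0.0763) or WT 24 h replicate 1 (0.0656). In β8ITG-cKO it was listed at 0.08, 0 and 0 FPKM at 0 h and stood at 0.90, 1.32 and 0.80 FPKM at 24 h, under the level required for a call (difference 0.96, SE 0.15, adjusted p = 0.00172). The genotypes lay apart at 0 h (difference -2.67, SE 0.38, adjusted p = 0.0106; lost without β8ITG-cKO 0 h replicate 3, 0.0526) and overlapped at 24 h (-0.03, 95% interval -0.66 to 0.61). The change over time differed by 2.64 (SE 0.51, adjusted p = 0.0108), downward in WT and upward in β8ITG-cKO. The other ligands of Cxcr3 stayed at or below 0.43 FPKM for Cxcl9 and 0.0771 FPKM for Cxcl11. Ifng, which encodes the main inducer of all 3, was listed at 0 in every library.

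Immediate early genes, which are switched on within minutes of a stimulus, were also lower in β8ITG-cKO than in WT at 0 h. The summed level of 12 of them was 393.3, 242.9 and 110.2 FPKM in WT 0 h replicates 1, 2 and 3. It was 41.0, 32.3 and 37.4 FPKM in β8ITG-cKO 0 h, and 191.9 to 471.5 FPKM in the 6 libraries at 24 h. This list was drawn up after the data were seen. At 0 h, 7 of its 11 tested genes were called lower in β8ITG-cKO and 0 higher, against 1.18% and 1.35% of all genes. Because of how the list was drawn up, that count is no test. Atf3, a stress-induced repressor, was at 46.7, 28.6 and 8.99 FPKM in WT 0 h and at 0.38, 0.12 and 0.17 FPKM in β8ITG-cKO 0 h (difference -4.30, SE 0.49, adjusted p = 0.00457). Fos was at 83.6, 29.6 and 14.0 FPKM against 1.08, 1.09 and 1.37 FPKM (difference -3.96, SE 0.53, adjusted p = 0.00866).

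Some feedback regulators of NF-κB and of chemokine transcripts were also lower in β8ITG-cKO at 0 h. Zc3h12a, on the same list, overlapped, at 0.63, 0.51 and 0.46 FPKM in WT and 0.47, 0.13 and 0.62 FPKM in β8ITG-cKO. Of the 16 genes listed as inducers and regulators, 9 were tested at 0 h. Of these, 4 were called lower in β8ITG-cKO and 0 higher, against 1.18% and 1.35% of all genes. The list was chosen with earlier results of these data known, so its counts are no test. Zfp36 (tristetraprolin), which speeds the decay of chemokine and cytokine mRNAs, was at 31.8, 22.9 and 9.30 FPKM in WT 0 h and at 1.75, 1.24 and 1.55 FPKM in β8ITG-cKO 0 h (difference -3.00, SE 0.37, adjusted p = 0.00635). Nfkbia, which encodes the NF-κB inhibitor IκBα, was at 71.0, 48.6 and 28.6 FPKM against 11.5, 7.72 and 8.99 FPKM (difference -2.20, SE 0.30, adjusted p = 0.00914). Tnfaip3, which encodes the NF-κB inhibitor A20, was at 25.6, 18.9 and 6.68 FPKM against 3.19, 2.36 and 1.95 FPKM (difference -2.21, SE 0.41, adjusted p = 0.0249). At 24 h none of the 14 tested genes of the list was called between the genotypes (3.66% of all genes). Over time 7 of 13 were called higher in WT and 9 of 13 in β8ITG-cKO, against 10.3% and 11.3% of all genes. Il1b, the gene of interleukin 1β, was called in both, at 0.12 to 1.19 FPKM in WT 0 h and 2.58 to 18.8 FPKM in WT 24 h (difference 2.40, SE 0.57, adjusted p = 0.0172). In β8ITG-cKO it went from 0.01 to 0.44 FPKM at 0 h to 2.86 to 8.10 FPKM at 24 h (difference 2.37, SE 0.31, adjusted p = 0.00065).

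Red blood cell genes also differed at 0 h. The sum of 5 of them was 152.5, 73.7 and 68.0 FPKM in WT 0 h and 6.52 to 15.8 FPKM in β8ITG-cKO 0 h. Of the 5, 4 were called lower, against 1.18% of all genes. At 24 h photoreceptor genes differed, with a sum over 8 genes of 69.1 to 128.3 FPKM in WT and 796.4 to 939.7 FPKM in β8ITG-cKO. All 8 were called higher in β8ITG-cKO, against 3.37% of all genes. At 0 h that sum was 323.4, 1091.3 and 129.2 FPKM in WT and 310.2, 164.7 and 246.0 FPKM in β8ITG-cKO. The part of blood cells, of retinal RNA and of the immediate early response in the chemokine levels was not tested.

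Cxcl14, a chemokine of resting epithelia, rose in both genotypes, with little spread within each group. It was at 19.9, 18.9 and 19.3 FPKM in WT 0 h and at 68.5, 55.1 and 68.8 FPKM in WT 24 h, 3.31-fold higher (difference 1.67, SE 0.14, adjusted p = 0.000365). β8ITG-cKO held 13.4, 10.2 and 13.3 FPKM at 0 h, then 32.5, 38.5 and 34.4 FPKM at 24 h, 2.86-fold higher (difference 1.45, SE 0.13, adjusted p = 0.000111). WT lay above β8ITG-cKO without overlap at 0 h (difference -0.63, SE 0.12, adjusted p = 0.0287) and at 24 h (-0.85, SE 0.14, adjusted p = 0.0142). Neither was called, because the means differed by 1.58-fold and 1.83-fold. With 1 library left out, the adjusted p for Cxcl14 was 0.0513 to 0.101 at 0 h, over the threshold in 6 of 6 fits, and 0.0174 to 0.0733 at 24 h, over it in 3 of 6. The change over time did not differ detectably (-0.22, SE 0.18, 95% interval -0.62 to 0.18).

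Cxcl12, the ligand of Cxcr4 that keeps stem cells and lymphocytes in place, was at 1.65, 0.77 and 0.33 FPKM in WT 0 h and at 0.73, 6.5 and 1.26 FPKM in WT 24 h, with overlap (adjusted p = 0.317). In β8ITG-cKO it rose 13.8-fold, from 0.16, 0.15 and 0.27 to 2.77, 2.77 and 2.51 FPKM (difference 1.63, SE 0.12, adjusted p = 5.70e-05). The change over time differed by 0.88 (SE 0.61, adjusted p = 0.419), so the genotypes were not shown to differ. Cxcl16, a membrane-bound ligand of Cxcr6, rose from 0.89, 0.64 and 0.88 to 2.12, 5.51 and 1.71 FPKM in WT (difference 1.08, SE 0.32, adjusted p = 0.0392). In β8ITG-cKO it rose from 0.93, 0.82 and 0.60 to 3.41, 3.48 and 4.04 FPKM (difference 1.38, SE 0.13, adjusted p = 0.000159). The WT call for Cxcl16 was lost without any 1 library (adjusted p = 0.0504 to 0.102) except WT 24 h replicate 3 (0.0197), and after rescaling the libraries to the same median (0.0525).

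Cx3cl1 (fractalkine), a chemokine tethered to the surface of neurons and epithelium, was not called in any comparison. It was at 12.1, 11.2 and 16.7 FPKM in WT 0 h, at 22.5, 20.8 and 21.1 in β8ITG-cKO 0 h, at 26.6, 19.9 and 18.1 in WT 24 h and at 21.7, 28.6 and 24.3 in β8ITG-cKO 24 h. At 0 h it was the only member higher in β8ITG-cKO at an adjusted p of at most 0.05, 1.61-fold by the means (difference 0.67, SE 0.15, adjusted p = 0.0389), without overlap and under the fold required for a call. That pass was lost in 5 of the 6 fits that left out 1 library (Cx3cl1 adjusted p up to 0.134) and kept without WT 0 h replicate 3 (0.0125). In WT it was 1.61-fold higher at 24 h than at 0 h (difference 0.65, SE 0.20, adjusted p = 0.0451), also under that fold and lost in 4 of 6 such fits (up to 0.141). The genotypes overlapped at 24 h (difference 0.21, 95% interval -0.21 to 0.63).

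Ccl25 and Ccl27a, ligands of Ccr9 and Ccr10 made in gut and skin epithelium, showed no call. Ccl25 was at 1.31, 2.4 and 2.2 FPKM in WT 0 h, 1.2, 2.32 and 0.53 in WT 24 h, 1.04, 3.51 and 3.34 in β8ITG-cKO 0 h and 2.26, 3.13 and 2.03 in β8ITG-cKO 24 h. Ccl27a was at 8.14, 4.49 and 6.67 FPKM in WT 0 h, 4.10, 6.69 and 11.8 in WT 24 h, 9.19, 4.80 and 11.3 in β8ITG-cKO 0 h and 5.70, 4.98 and 6.65 in β8ITG-cKO 24 h. All pairs of groups overlapped for both genes. The adjusted p was 0.232 to 0.983 over the 4 pairs of conditions.

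The receptors for these ligands were low. The sum over 18 chemokine receptor genes was 1.70 to 3.43 FPKM at 0 h, 12.2 to 12.3 FPKM in WT 24 h and 7.81 to 13.7 FPKM in β8ITG-cKO 24 h. In WT, 2 of the 4 tested were called higher over time, Cxcr2 and Ccr1, against 10.3% of all genes. Ccr1 held 0, 0.12 and 0.09 FPKM at 0 h, then 2.75, 3.45 and 2.89 FPKM at 24 h (difference 1.92, SE 0.17, adjusted p = 0.000405). In β8ITG-cKO 0 of the 6 tested were called, with 4 of them at an adjusted p of at most 0.05 (46.1% of all genes). Between the genotypes 0 of 8 were called at 24 h (3.66% of all genes). Of the 5 atypical receptors, which bind chemokines without sending a G protein signal, Ackr3 (the scavenger of Cxcl12) was called higher over time in WT, from 3.91, 2.87 and 2.96 to 7.14, 6.16 and 11.3 FPKM (difference 1.08, SE 0.23, adjusted p = 0.0109). Ackr1 was called higher in β8ITG-cKO than in WT at 24 h, at 2.5, 2.14 and 3.29 FPKM against 0, 0.29 and 0.56 FPKM (difference 1.52, SE 0.21, adjusted p = 0.00707). Ackr1, the Duffy antigen, is known on venous endothelium and red blood cells. The sum of 5 endothelial markers was 5.47 to 7.38 FPKM in β8ITG-cKO 24 h and 0.74 to 2.02 FPKM in WT 24 h. Of the 3 tested, 1 was called higher in β8ITG-cKO (3.37% of all genes). The sum of 5 red blood cell genes overlapped, at 87.4 to 195.1 FPKM in β8ITG-cKO 24 h and 36 to 219.7 FPKM in WT 24 h. The part of these cells in the Ackr1 level was not tested. Among 7 chemokine-like genes outside the symbol rule, Pf4, a platelet and macrophage CXC chemokine, was at 2.33, 1.44 and 1.15 FPKM in β8ITG-cKO 0 h and at 13.5, 8.04 and 7.23 FPKM in β8ITG-cKO 24 h (difference 1.99, SE 0.25, adjusted p = 0.000557). WT held 4.56, 3.44 and 0.50 FPKM at 0 h, then 5.01, 10.9 and 12.7 FPKM at 24 h, not called.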

How the data were processed

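Lens capsules with attached LCs were measured in 12 libraries, 3 for each of 4 conditions. The authors prepared libraries from total RNA with a stranded low-input kit (SMARTer Pico), sequenced read pairs, and deposited 4 tables, each of a pair of conditions, with FPKM per library and gene from Cuffdiff. The submitters' processing notes name FastQC, cutadapt 1.12, TopHat2 2.1.0 and Cuffdiff 2.2.1, and mm10 and GRCm38.p5. The tables also hold the authors' fold changes, p-values and q values, and 16 columns of group means and Cuffdiff group values, which were not used. Each library had the same values in both tables that hold it.

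Pairs of conditions were fitted with limma 3.58.1 (R 4.3.3; limma-trend, Benjamini-Hochberg over all genes) on log2(FPKM + 1) for genes averaging 0.5 FPKM or more, and time by genotype in 1 fit over 12 libraries. P-values measure the spread between libraries of pooled capsules. Members with a group mean of at least 2 FPKM or a call are described by library, and of other lists up to 4 genes with the largest called change, plus those named for a role beside a result, chosen after their values were seen. The members and lists were chosen with earlier results of these data known, so their counts are descriptive and are no test. Gene positions are from GENCODE M21 (GRCm38). The fit was tested on simulated data. Alternatives were another pseudocount (0.1 or 0.5), filter, scaling, fit, block, fold criterion, and each library left out. Python 3.11.15, pandas 2.3.3, numpy 2.4.6 and matplotlib 3.10.9 were used.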

Additional observations from a re-analysis of the deposited data

Results flagged for a closer look

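The 4 members below were singled out because the change from 0 h to 24 h differed between the genotypes by the limma interaction test over all 15262 genes, of which 9.39% passed. For Ccl2 the change was larger in β8ITG-cKO by 4.83 (SE 0.48, adjusted p = 0.00143) on the log2(FPKM + 1) scale, and for Ccl7 by 3.21 (SE 0.62, adjusted p = 0.0106). For Cxcl10 it differed by 2.64 (SE 0.51, adjusted p = 0.0108), with WT libraries lower at 24 h than at 0 h and β8ITG-cKO libraries higher. For Ccl5 it differed by -1.94 (SE 0.55, adjusted p = 0.0471), a smaller rise in β8ITG-cKO. The first 3 passed in each of the 12 fits that left out 1 library, with adjusted p up to 0.00597 for Ccl2, 0.0299 for Ccl7 and 0.0322 for Cxcl10, and Ccl5 failed in 9 of them.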

How the results depend on the processing

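The count of members called over time stayed within 1.5 times its value under every alternative tried, 9 to 13 in WT and 11 to 15 in β8ITG-cKO, and the count with an interaction stayed at 3 to 5. Between the genotypes at 24 h, the single call (Cxcl5) became 0 with no filter on low values, 0 with the replicate block, 0 with a fold over 4 and 0 to 1 with 1 library left out (the 1 was Cxcl2 without WT 24 h replicate 1 and Cxcl5 without β8ITG-cKO 24 h replicate 1), and became 3 (Cxcl5, Cxcl2 and Ccl5) in 1 fit over all 12 libraries. At 0 h, the 4 calls became 1 (Ccl2) with no filter on low values and 1 to 5 with 1 library left out, 2 without β8ITG-cKO 0 h replicate 2 (Ccl2 and Cxcl10) and 1 without β8ITG-cKO 0 h replicate 3 (Ccl2). Cxcl1 was gained at 0 h with a pseudocount of 0.1 or 0.5 FPKM, with rescaling and without WT 0 h replicate 3 (5 calls each), and took the place of Cxcl2 with a filter of 2 FPKM (4 calls). Without the filter the adjustment ran over 28281 genes at 0 h and 28900 at 24 h, and the cause of the lost calls was not tested. The WT count over time of 9 with no filter lacked Cxcl1, Cxcl10, Ccl24 and Cxcl16, and the interaction of Ccl5 was lost with no filter, with a pseudocount of 0.1 FPKM and with the replicate block. Replicate numbers did not pair the libraries: deviations of libraries with the same number correlated by -0.25 to 0.10 over 10880 genes. With the replicate block the counts were 10 (without Cxcl1, Ccl24 and Cxcl16) in WT and 15 in β8ITG-cKO over time, 0 at 24 h, 4 at 0 h and 3 for the interaction.

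Rescaling the libraries to the same median moved the median of all genes from 0.16 to -0.05 in WT over time and from 0.23 to -0.00 in β8ITG-cKO, and the calls over all genes from 1566 higher and 593 lower to 982 and 961 in WT and from 1719 and 575 to 1172 and 877 in β8ITG-cKO. Of the members' calls over time, Cxcl16 in WT was lost. Members that did not pass the test could change sign. With rescaling Ccl27a in WT became -0.10, Ccl25 in β8ITG-cKO -0.20 and Cx3cl1 in β8ITG-cKO -0.09. With a pseudocount of 0.1 FPKM the difference of Cxcl10 between the genotypes at 24 h became 0.05 and the interaction of Ccl3 0.22. Leaving out 1 library gave ranges across 0 in WT over time for Ccl27a (-0.22 to 0.45), Ccl2 (-0.02 to 0.75) and Ccl7 (-0.07 to 1.09), and in β8ITG-cKO over time for Ccl25 (-0.36 to 0.21). Between the genotypes at 24 h it did so for Cxcl1 (-0.42 to 0.61), Cxcl12 (-0.16 to 0.89), Ccl24 (-1.06 to 0.18), Cxcl10 (-0.31 to 0.19), Ccl27a (-0.56 to 0.11), Ccl6 (-0.33 to 0.14) and Ccl9 (-0.27 to 0.04). At 0 h it did so for Cxcl16 (-0.08 to 0.06), and in the interaction for Ccl3 (-0.32 to 0.08), Cxcl2 (-0.17 to 0.63), Ccl24 (-1.06 to 0.18) and Ccl6 (-0.47 to 0.00). No called difference changed sign. The tables hold no read counts, so the counting error of low members is unknown.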
